A study of Mus musculus with 24 samples.

Results

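The cell cycle genes described here are 40 genes chosen by name, in 3 sets: 2 G1 cyclins, 15 genes of the G1/S transition and DNA replication, and 23 genes of mitosis. Their messenger RNA was measured with single-colour Agilent 8x60K arrays in 24 whole kidneys of male mice, with 1 array for each kidney. The labels call the mice young adult, and by the study's methods they were age-matched and only a few weeks old. The 6 control kidneys were of genotype mgb+/+, and the 18 megabladder (mgb-/-) kidneys came from mice that are born with an atonic bladder. The mgb-/- kidneys had been graded by hydronephrosis on ultrasound as mild (7), moderate (5) or severe (6). By the study's methods the grade rests on the share of parenchyma preserved, highest in mild and lowest in severe kidneys. Nothing in the labels ties kidneys to animals, and a mouse may have given a pair, so p-values measure only the spread between these samples. All 40 genes had at least 1 probe, 53 probes in all, and 37 genes entered the tests among 27971 genes of the whole array. The other 3 were dim: the probe of Ccne2 (cyclin E2) stood well above background on 0 arrays, that of Aurkb (the Aurora B kinase) on 1 and that of Cenpf (a kinetochore protein) on 2. Each of the 37 tested genes stood well above background on at least 22 of 24 arrays, so none passed the filter through a single group.

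A cell that divides copies its DNA in S phase and then separates the copies in mitosis. Genes of S phase are activated at the G1/S boundary by E2F factors, and genes of mitosis are switched on later, largely by the MuvB complex with B-Myb and FoxM1. In the maturing kidney most tubular cells leave the cycle, and the p21 protein encoded by Cdkn1a, an inhibitor of cyclin-dependent kinases, holds cells back after stress. In whole kidneys, fewer cycling cells and less message in each cycling cell cannot be told apart.

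Promoter sequences are shown for 7 members: the 5 that passed the test across all mgb-/- kidneys, and Cdk1 and Mki67, which are in wide use as marks of division. MuvB binds the cell cycle homology region (CHR, searched as TTTGAA or TTCGAA), NF-Y binds the CCAAT box (CCAAT), and E2F binds sites searched here as TTTCGCGC, TTTGGCGC or TTTCCCGC. Each line gives the 150 bases before the annotated start, 5′ to 3′ on the gene's strand, from RefSeq (GRCm38.p6), with matches to these letters on either strand in capitals. The capital AT that ends the Cdc45 line is the part before the start of an ATTGG match at -2.
Cdk1, chr10:69352913-69353062, minus strand: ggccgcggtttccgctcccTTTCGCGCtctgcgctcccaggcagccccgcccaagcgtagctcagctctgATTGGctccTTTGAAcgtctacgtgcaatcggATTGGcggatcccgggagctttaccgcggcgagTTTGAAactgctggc
Mki67, chr7:135716380-135716529, minus strand: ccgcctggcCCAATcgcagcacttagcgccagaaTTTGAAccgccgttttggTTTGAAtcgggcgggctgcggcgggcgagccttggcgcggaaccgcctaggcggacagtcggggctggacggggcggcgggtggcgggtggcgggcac
Kif11, chr19:37376232-37376381, plus strand: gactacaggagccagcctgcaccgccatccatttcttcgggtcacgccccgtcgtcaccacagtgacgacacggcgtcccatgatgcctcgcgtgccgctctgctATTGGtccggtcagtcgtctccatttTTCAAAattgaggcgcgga
Cenpe, chr3:135212413-135212562, plus strand: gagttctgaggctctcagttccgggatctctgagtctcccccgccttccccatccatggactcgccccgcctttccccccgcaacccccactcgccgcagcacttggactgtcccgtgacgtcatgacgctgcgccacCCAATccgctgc
Cdc45, chr16:18811973-18812122, minus strand: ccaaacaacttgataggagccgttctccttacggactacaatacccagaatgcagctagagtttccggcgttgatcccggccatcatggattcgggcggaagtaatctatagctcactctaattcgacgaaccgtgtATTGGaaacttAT
Mcm7, chr5:138171884-138172033, minus strand: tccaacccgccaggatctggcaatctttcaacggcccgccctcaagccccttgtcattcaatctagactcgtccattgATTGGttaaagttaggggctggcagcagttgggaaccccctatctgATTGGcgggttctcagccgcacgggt
Tyms, chr5:30073626-30073775, minus strand: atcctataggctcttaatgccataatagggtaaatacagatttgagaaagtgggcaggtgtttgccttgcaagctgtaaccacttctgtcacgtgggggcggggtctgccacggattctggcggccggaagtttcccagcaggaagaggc

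Windows of 300 bases, 250 before the start and 50 after it, were found for 31 of the 40 members. A CHR lay in the window of 14 of 18 mitotic members (77.8%) and a CCAAT box in 15 of 18 (83.3%), while 13 of 18 (72.2%) held both. Of 32851 windows of all genes, 19.2% held a CHR, 37.4% a CCAAT box and 7.52% both. Among 13 S phase members the CHR lay in 3 (23.1%), the CCAAT box in 9 (69.2%) and an E2F site in 6 (46.2%), against an E2F site in 1 of 18 mitotic members (Cdk1) and in 1.84% of all windows. The Cdk1 stretch above has a CCAAT box followed by a CHR close to the start. Both kinesin promoters have a CCAAT box near the start, and that of Kif11 has a CHR behind it. The Tyms window held no match to any of the 3 motifs. These are matches of letters, described without a test.

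Values are log2 intensities after subtraction of the array's 75th percentile, so that 0 is that percentile, and they can be compared between kidneys for a gene but not between genes. The share of probes well above background ran from 55.6% to 70.8% of an array. Severe replicate 4 stood apart, with the lowest of these shares and 660 spots marked as outliers against 102 to 261 on the other arrays, and it held isolated low values for Nusap1 and Rrm1. Severe replicate 5 stood apart in its tissue markers, described further below. The tissue label was checked on a list of 8 proximal tubule genes, all detected, whose mean lay at 6.33 to 6.59 in control kidneys and at 4.43 in severe replicate 5, the lowest of all. Comparisons were fitted with limma, with Benjamini-Hochberg adjustment across the 27971 genes, and a gene passed at an adjusted p under 0.05.

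In mgb-/- kidneys as a whole the genes of mitosis lay lower than in control kidneys. All 21 tested mitotic members had a lower mean, by a median log2 difference of -0.96 (51.3% of the control level), where the median over all genes tested was 0.01. The S phase members lay lower by less, with a median of -0.29 (81.8% of control) and 13 of 14 below control. The G1 cyclins did not follow, with log2 differences of -0.14 for Ccnd1 and 0.35 for Ccnd2. By the test, 5 of the 37 tested members were lower and 0 were higher. Over all genes, 8% were lower and 5.34% higher, a background not far from 5 of 37, so that the count alone does not set the members apart. At an unadjusted p under 0.05, 23 members were lower and 0 were higher by limma, where 16.7% of all genes were lower, and 12 mitotic members had an adjusted p between 0.05 and 0.1.

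**Figure D1:**
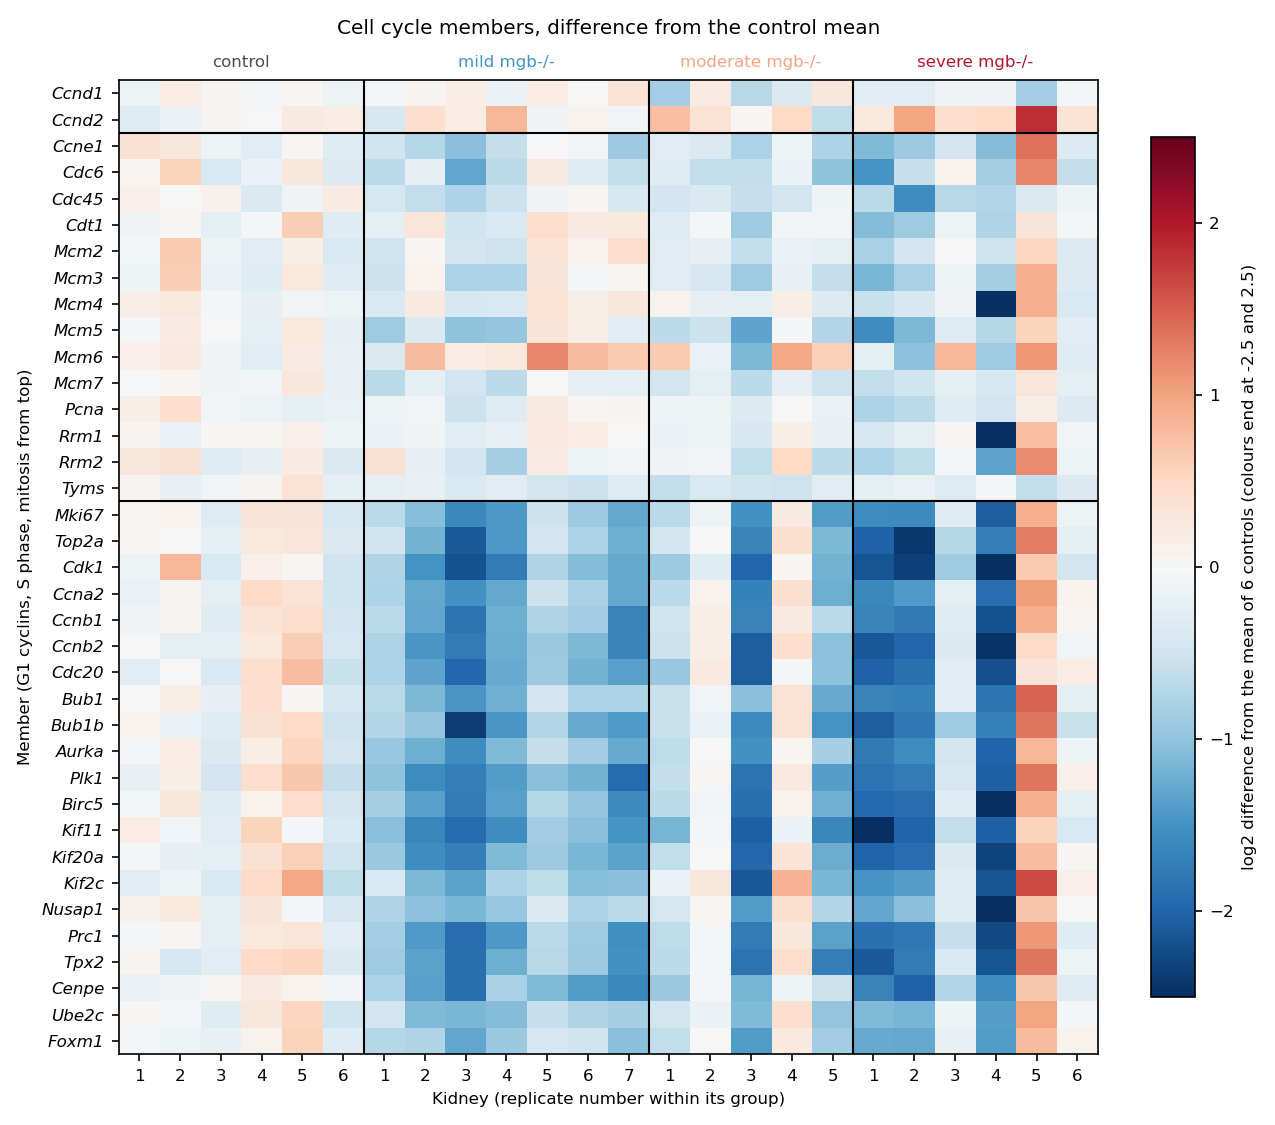
Each cell is the log2 difference of 1 member (rows, with the 2 G1 cyclins, 14 S phase and 21 mitotic members from top to bottom) in 1 kidney (columns) from the mean of the 6 control kidneys. The mitotic block is blue across all 7 mild kidneys, while moderate replicates 2 and 4 and severe replicates 3, 5 and 6 are pale or red.

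The mitotic members that passed were both kinesin motors. Kif11 encodes the motor that pushes the spindle poles apart. Its level was between -3.17 and -2.25 in control kidneys (median -2.85), between -4.72 and -3.68 in mild kidneys (median -4.28) and between -5.39 and -2.24 in severe kidneys (median -4.10). In the 5 moderate kidneys it was -3.96, -2.85, -4.84, -2.95 and -4.44. Every mild kidney was below every control, 3 of 5 moderate and 5 of 6 severe kidneys were below the lowest control, and severe replicate 5 was the highest of all 24. Kif11 was lower in mgb-/- kidneys by a log2 difference of -1.20 (SE 0.34, adjusted p = 0.0232), and 17 of 18 lay below the control mean.

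Cenpe encodes the kinesin that attaches chromosomes to spindle microtubules and brings them to the metaphase plate. It was between 1.23 and 1.61 in control kidneys (median 1.38) and between -0.48 and 0.64 in mild kidneys (median 0.048), with no overlap. The moderate kidneys were at 0.48, 1.37, 0.25, 1.31 and 0.87, and the severe kidneys ranged from -0.62 to 2.09 (median 0.25). Moderate replicates 2 and 4 thus lay within the control range and severe replicate 5 above it. Against control, Cenpe differed by -0.96 (SE 0.29, adjusted p = 0.0305), and 17 of 18 kidneys were below the control mean.

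Cdk1, the kinase that drives entry into mitosis, had the largest mean difference among the members but a wide spread. Its level was between -2.30 and -0.96 in control kidneys, between -3.98 and -2.55 in mild kidneys, and -2.70, -2.09, -3.79, -1.76 and -2.98 in the moderate kidneys. The severe kidneys ran from -5.76 to -1.15 (median -3.32), the lowest being severe replicate 4. The difference of -1.27 (SE 0.43, adjusted p = 0.0523) did not pass. The other 2 probes of Cdk1 stood well above background on 12 and 0 arrays, and the first of them, with a mean of -5.45 in control kidneys, was 0.17 higher in mgb-/- kidneys.

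Mki67 encodes Ki-67, the nuclear protein by which cycling cells are stained. It ranged from 1.75 to 2.52 in control kidneys (median 2.26), from 0.58 to 1.67 in mild kidneys (median 1.14) and from 0.14 to 3.11 in severe kidneys (median 1.26). In moderate kidneys it was 1.52, 2.06, 0.69, 2.43 and 0.81. All mild kidneys were below the lowest control, and the moderate and severe kidneys lay on both sides of it. The log2 difference of mgb-/- from control kidneys was -0.87 (SE 0.32, adjusted p = 0.0681), and the second Mki67 probe differed by -0.80.

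The other mitotic members had lower means without passing the test. The cyclins that activate Cdk1 had log2 differences of -0.81 (Ccna2), -0.87 (Ccnb1) and -1.02 (Ccnb2). Top2a, the topoisomerase that untangles sister chromosomes, stood at -0.91 and Foxm1, the factor that activates this gene set, at -0.64. For the spindle checkpoint and its target the differences were -0.74 (Bub1), -1.0 (Bub1b), -1.03 (Cdc20, which activates the anaphase-promoting complex) and -0.61 (Ube2c, the ubiquitin-conjugating enzyme of that complex). The mitotic kinases Aurka and Plk1 differed by -0.86 and -1.0, and Birc5, of the chromosomal passenger complex, by -1.06. Spindle proteins ranged from -0.68 (Kif2c, which depolymerises microtubules) through -0.87 (Nusap1) and -0.97 (Tpx2) to -0.99 (Prc1, which bundles microtubules of the central spindle) and -1.0 (Kif20a, a motor of the same structure). The adjusted p of these members lay between 0.0538 for Cdc20 and 0.311 for Nusap1, whose value of -6.37 in severe replicate 4 was far below the -1.84 to 0.16 of the other severe kidneys. Among 10 further probes of mitotic members above background on at least 5 arrays, 9 were lower in mgb-/- kidneys, the exception being the dim Cdk1 probe.

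Among S phase members 3 passed, all lower and by less than the kinesins. Tyms encodes thymidylate synthase, which makes the thymidine nucleotide for DNA. It was between -2.82 and -2.21 in control, -3.12 and -2.75 in mild and -3.20 and -2.59 in severe kidneys, and -3.18, -2.95, -3.07, -3.09 and -2.83 in moderate kidneys. All 5 moderate kidneys lay below the lowest control, and all 18 mgb-/- kidneys below the control mean (log2 difference -0.35, SE 0.09, adjusted p = 0.0148). Unlike the mitotic members, Tyms had its lowest value in severe replicate 5.

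Cdc45 encodes a subunit that turns the loaded helicase into an active one. Its range was -3.17 to -2.59 in control, -3.56 to -2.74 in mild and -4.36 to -2.90 in severe kidneys, and the moderate kidneys were at -3.27, -3.16, -3.38, -3.25 and -2.90. The groups overlapped, with 17 of 18 mgb-/- kidneys below the control mean (-0.49, SE 0.16, adjusted p = 0.0381). Mcm7, of the helicase itself, was between 2.94 and 3.40 in control, 2.46 and 3.12 in mild and 2.52 and 3.43 in severe kidneys, and at 2.66, 2.89, 2.46, 2.93 and 2.61 in moderate kidneys. All moderate kidneys, 6 of 7 mild and 5 of 6 severe kidneys were below the lowest control (-0.35, SE 0.12, adjusted p = 0.0468).

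The remaining subunits of the helicase did not pass. They differed by -0.21 (Mcm2), -0.36 (Mcm3), -0.22 (Mcm4) and -0.54 (Mcm5), while Mcm6 was the single S phase member with a higher mean, by 0.22 (SE 0.30). The factors that load the helicase stood at -0.47 (Cdc6) and -0.21 (Cdt1), and cyclin E1 (Ccne1), which opens S phase, at -0.48. The sliding clamp Pcna and the ribonucleotide reductase subunits Rrm1 and Rrm2, which supply deoxynucleotides, differed by -0.21, -0.23 and -0.21. Adjusted p-values of these genes ran from 0.123 for Mcm5 to 0.681 for Rrm1.

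**Figure D2:**
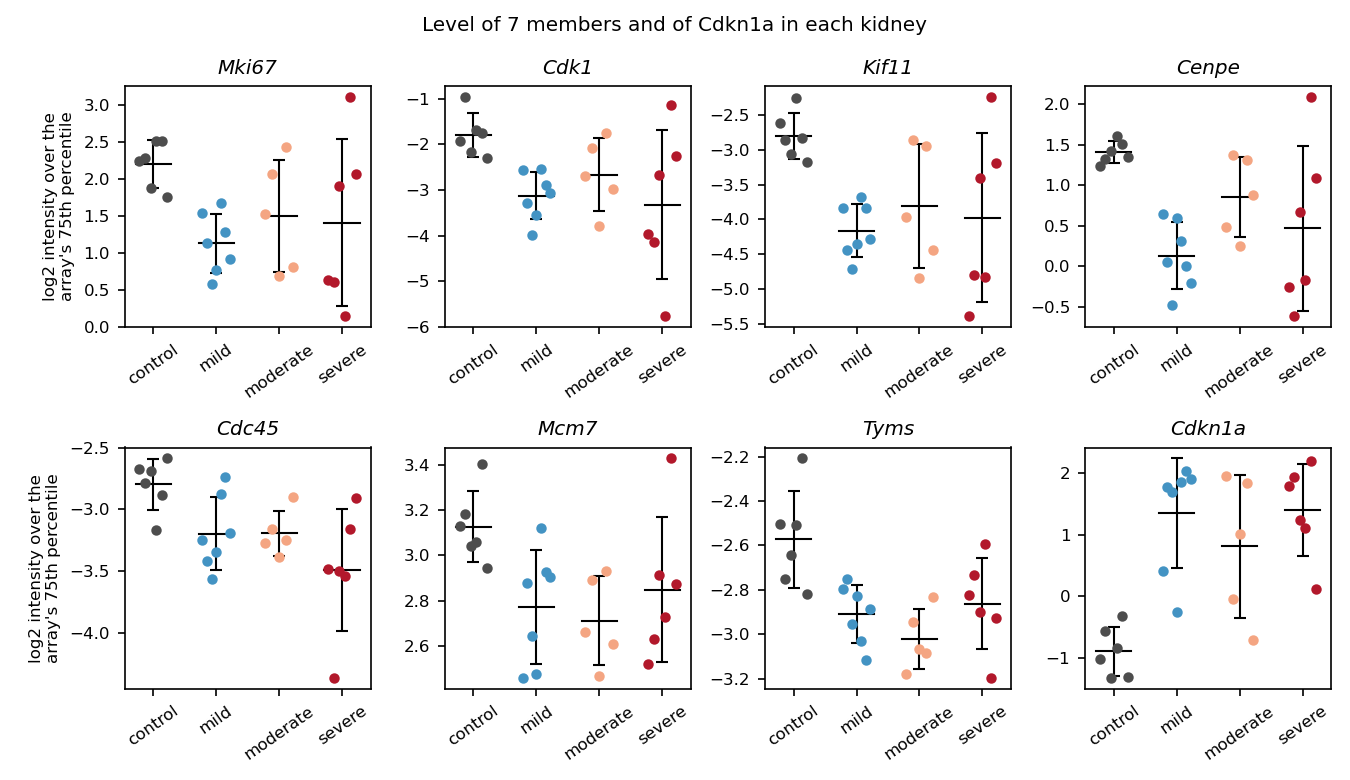
Levels of 7 members and of Cdkn1a in each kidney (points) by group, on the y axis as log2 intensity over the array's 75th percentile, with the group mean (horizontal line) and SD (bars). For Mki67, Cdk1, Kif11 and Cenpe no mild kidney reaches the control range, while single moderate and severe kidneys do, and for Cdkn1a 17 of 18 mgb-/- kidneys lie above the highest control.

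The count of 5 rested on single kidneys. It was 23 without severe replicate 5 (where 9.34% of all genes were lower), 13 without moderate replicate 4, 12 without severe replicate 6 and 11 without moderate replicate 2. It was 3 without mild replicate 2 or 3, moderate replicate 3 or severe replicate 1, 2 without control replicate 2, 3, 4 or 6, and 1 without control replicate 1 or 5. Without severe replicate 4 it stayed at 5. The share of all genes that were lower, 8% with every kidney, moved as well. It was 3.75% to 5.87% without 1 of the control kidneys, and 6.44% to 6.99% where 3 members were lower. The falls in the count thus came with fewer genes passing over the whole array. Without moderate replicate 2, severe replicate 6 and moderate replicate 4 the share was 9.37%, 10.04% and 7.39%. The last of these was below 8% although more members passed. When the slide of 8 arrays, which held 2 control and 6 mgb-/- kidneys each, was a term of the fit, 13 members were lower (7.46% of all genes). Within each of the 3 slides all 21 mitotic members had a lower mean in mgb-/- kidneys, with medians of -1.08, -0.63 and -1.11, and 13, 11 and 14 of 14 S phase members were lower, with medians of -0.21, -0.31 and -0.37. With a fold minimum of 2 as a further condition 1 member was lower, Kif11, and 0 were higher, beside 1.26% lower and 1.82% higher over all genes.

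Counted kidney by kidney, the mitotic members moved together. In 10 of 18 mgb-/- kidneys all 21 lay below the lowest control, and in 13 of 18 at least 18 did. In the other 5 kidneys at most 6 of 21 did so. No kidney fell between these counts. The share of all genes below the lowest control in each kidney is not given here, so these counts have no background beside them. The 13 kidneys were all 7 mild kidneys, 3 of 5 moderate (replicates 1, 3 and 5) and 3 of 6 severe (replicates 1, 2 and 4). The count was 0 in moderate replicates 2 and 4 and severe replicate 5, 4 in severe replicate 6 and 6 in severe replicate 3.

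The mean log2 difference of the 21 mitotic members from the control mean was also taken for each kidney. It was -0.05, 0.03, -0.28, 0.32, 0.41 and -0.44 in the control kidneys and ran from -1.71 to -0.70 in mild kidneys (median -1.24). In moderate kidneys it was -0.64, -0.01, -1.68, 0.26 and -1.14, and in severe kidneys it was -1.80, -1.73, -0.43, -2.31, 0.95 and -0.12. The mitotic members spread more widely in the higher grades. Their median SD was 0.37 for control, 0.38 for mild, 0.83 for moderate and 1.25 for severe kidneys, and all 21 members had a larger SD in moderate and in severe than in mild kidneys. S phase members varied less, with median SDs of 0.23, 0.39, 0.25 and 0.73 in the same order, and their mean lay below every control in 11 of 18 mgb-/- kidneys and above every control in 1, severe replicate 5 at 0.59.

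**Figure D3:**
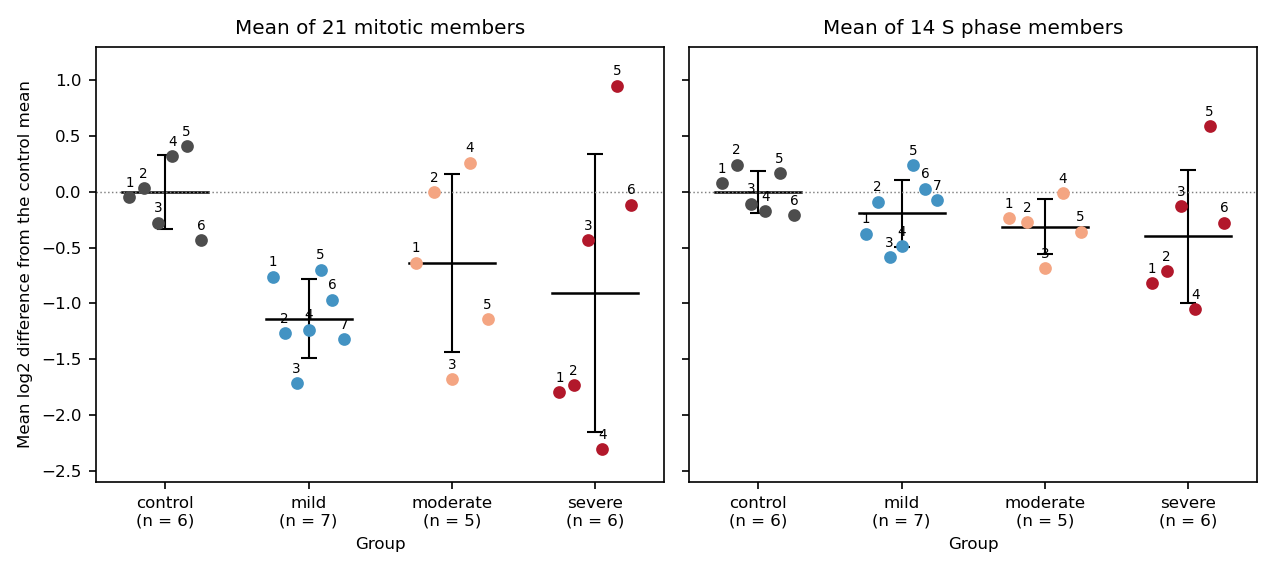
Mean log2 difference from the control mean over the 21 tested mitotic members (left) and the 14 tested S phase members (right), 1 point for each kidney with its replicate number, with the group mean and SD. Mitotic means of the 7 mild kidneys (-1.71 to -0.70) lie below all controls (-0.44 to 0.41), and the severe kidneys run from -2.31 to 0.95.

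In mild kidneys, the grade with the most parenchyma preserved, the mitotic members lay below control in kidney after kidney. For 18 of 21 mitotic members every mild kidney lay below every control kidney, which held for 6.01% of all genes, and for 0 of 14 S phase members. The median difference of the mitotic members was -1.21 (43.3% of control), and 16 of 21 differed by more than 2-fold. The largest was Plk1, the kinase that runs through mitosis from entry to exit, with -1.41 (SE 0.45, adjusted p = 0.0669). The S phase median was -0.20.

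In the fit of all 4 groups 1 member passed in mild kidneys, Cenpe, lower by -1.27 (SE 0.32, adjusted p = 0.0233), and 0 were higher, beside 3.01% of all genes lower and 3.01% higher. At an unadjusted p under 0.05, 22 members were lower and 0 higher by limma, and 11.5% of all genes were lower. That fit takes its spread from all grades. In the fit of mild and control kidneys alone 22 members were lower, all 21 mitotic members and Tyms, beside 11.6% of all genes. The adjusted p of the mitotic members in that fit ran from 0.000419 (Cenpe) to 0.0212 (Kif2c). Over all 38 alternatives the number lower ran from 0 to 22, and the adjusted p of Cenpe in mild kidneys from 7.76e-05 to 0.0784. The count of 1 became 12 without severe replicate 5 (4.76% of all genes lower) and 3 without severe replicate 4. It was 2 without moderate replicate 2 or 3 or severe replicate 1 or 6, and 0 without control replicate 3 or 4 or mild replicate 3 or 7.

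In moderate kidneys 0 members passed in either direction, beside 0.554% of all genes lower and 0.647% higher. By limma at an unadjusted p under 0.05, 4 were lower and 0 higher, and 10.3% of all genes were lower, so the members stood at the background. The median of the mitotic members was -0.61, and Kif11 had the largest difference (-1.01, adjusted p = 0.233). Every moderate kidney lay below every control for 2 members, Mcm7 and Tyms, both of S phase, where 1.82% of all genes had that pattern. The number lower was 1 without moderate replicate 2 or 5 or severe replicate 4, 5 or 6.

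In severe kidneys 1 member was lower, Cdc45, by -0.69 (SE 0.19, adjusted p = 0.0181), and 0 were higher, beside 9.55% of all genes lower and 6.56% higher. At an unadjusted p under 0.05, 13 members were lower and 1 higher by limma, beside 18.3% of all genes lower and 13.4% higher. Cdk1 had the largest difference, at -1.53 (SE 0.53, adjusted p = 0.0537). For 0 of the 37 members did every severe kidney lie below every control, against 2.15% of all genes. The 1 member with a higher mean was Ccnd2, cyclin D2 of the G1 phase, which was between 0.61 and 2.18 in severe and between 0.018 and 0.58 in control kidneys. These groups did not overlap, as was so for 2.83% of all genes, and the difference was 0.73 (SE 0.26, adjusted p = 0.0547). Ccnd2 passed without mild replicate 4, moderate replicate 5 or severe replicate 6.

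Single severe kidneys moved the count in that grade. Severe replicate 5 had the highest level of all 24 kidneys for 18 of 21 mitotic and 8 of 14 S phase members. Severe replicate 4 had the lowest for 16 of 21 and 3 of 14. Without severe replicate 5, 17 members were lower in severe kidneys, beside 6.02% of all genes. They were 13 mitotic members and 4 of S phase (Ccne1, Cdc45, Mcm7 and Pcna). The median mitotic difference was then -1.26 in place of -0.94. With severe replicates 4 and 5 both left out, chosen after seeing the data, 4 mitotic and 2 S phase members were lower, beside 4.91% of all genes. The median mitotic difference was then -0.999, close to that of all severe kidneys. The number was 6 without severe replicate 6, and 2 without severe replicate 4 or moderate replicate 3.

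**Figure D4:**
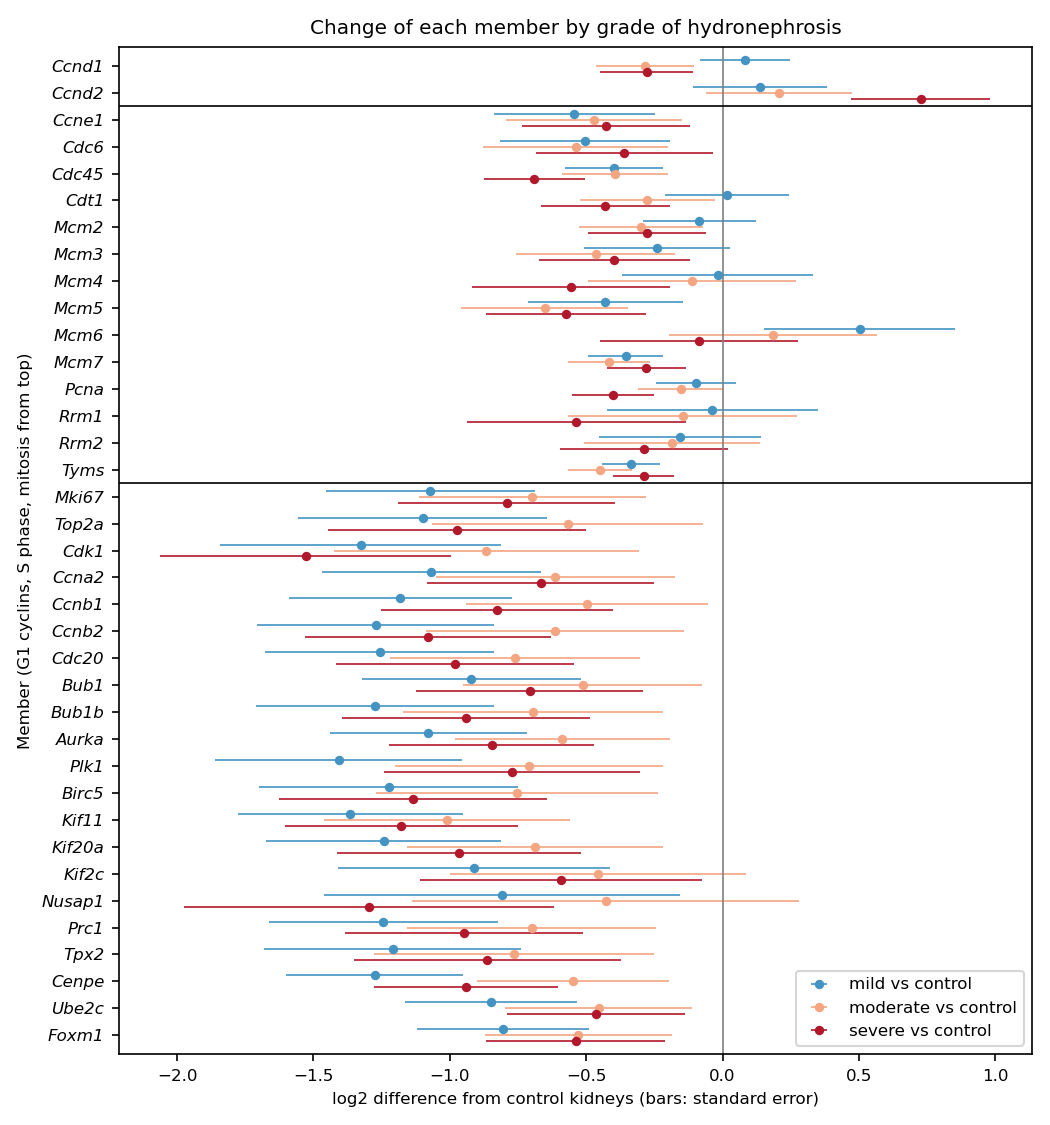
Log2 difference of each tested member from control kidneys (x axis, with the standard error as bars) in mild, moderate and severe kidneys, from the fit of all 4 groups. All points of the 21 mitotic members lie left of 0, while S phase members lie closer to 0. For 19 of 21 mitotic members the mild group has the lowest mean (6 of 21 without severe replicate 5, with severe replicate 4 kept).

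Between grades 0 members differed in any of the 3 comparisons. Of all genes 0.586% differed between severe and mild, 0% between moderate and mild, and 0.00715% between severe and moderate kidneys. At an unadjusted p under 0.05 by limma, 2 members were lower and 1 higher in severe than mild, 1 lower and 1 higher in moderate than mild, and 0 differed between severe and moderate kidneys. Of all genes 11.1%, 6.68% and 10.4% did so, and none of these member counts stood above that background. The mean of all 21 mitotic members was highest in control kidneys, next in moderate kidneys, and 19 of 21 were lowest in mild kidneys. The lowest place rested on single severe kidneys. Without severe replicate 5 mild kidneys were lowest for 6 of 21 and severe kidneys for 15. Control kidneys stayed highest for all 21 and moderate kidneys highest of the grades. Severe replicate 4, kept there, was the lowest of all 24 kidneys for 16 of 21 mitotic members. With severe replicates 4 and 5 both left out, chosen after seeing the data, the median mitotic difference from control was -0.999 in severe and -1.21 in mild kidneys. Since no test between grades passed, the order of the grades was not beyond the spread between kidneys.

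Of the inhibitors, Cdkn1a had the largest difference. It was between -1.33 and -0.33 in control, -0.26 and 2.05 in mild (median 1.77) and 0.12 and 2.20 in severe kidneys (median 1.52), and 1.96, -0.05, 1.02, 1.84 and -0.71 in moderate kidneys. All mild and severe kidneys and 4 of 5 moderate kidneys lay above the highest control. The log2 difference from control was 2.25 (SE 0.45, adjusted p = 0.00601) in mild, 1.71 (SE 0.49, adjusted p = 0.0731) in moderate and 2.30 (SE 0.46, adjusted p = 0.00405) in severe kidneys. In single kidneys raised Cdkn1a occurred with low mitotic means and without them. Cdkn1a lay above and mitotic means below every control in all mild kidneys, moderate replicates 1 and 3 and severe replicates 1, 2 and 4. In moderate replicates 2 and 4 and severe replicates 3, 5 and 6 Cdkn1a was likewise raised, without a mitotic mean below every control. Severe replicate 5 had the highest Cdkn1a and the highest mitotic mean. Moderate replicate 5 and mild replicate 4, with the lowest Cdkn1a of the mgb-/- kidneys, had mitotic means of -1.14 and -1.24. The next lowest, moderate replicate 2 and severe replicate 6, had -0.01 and -0.12. A link between these levels was not tested. Among the other 10 inhibitors and pocket proteins of the list, Cdkn2c (p18, an inhibitor of Cdk4 and Cdk6) fell by 0.96 (SE 0.17, adjusted p = 0.00146) and Cdkn3, a phosphatase of cyclin-dependent kinases, fell by 1.14 (SE 0.37, adjusted p = 0.0433). In all, 2 of 11 were lower and 2 higher, beside 8% of all genes lower and 5.34% higher. The second higher gene was Rb1 (0.26, adjusted p = 0.0474), the retinoblastoma pocket protein, named after its value was seen.

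Further cell cycle genes were read from lists written for the same machinery. Of 19 tested spindle and cytokinesis genes all had a lower mean in mgb-/- kidneys (median -0.94) and 4 passed, beside 8% of all genes lower. Kif20b, a kinesin of cytokinesis, fell by 2.31 (SE 0.46, adjusted p = 0.00369), from 2.33 ± 0.49 (SD, n = 6) to 0.024 ± 1.12 (SD, n = 18), more than any of the 37 members. Ect2, which activates the contractile ring, fell by 0.71 (SE 0.18, adjusted p = 0.0119), and Nek2, a centrosome kinase, fell by 1.07 (SE 0.29, adjusted p = 0.0202). The fourth, named after its value was seen, was Ckap2, a spindle microtubule protein, at -1.24 (adjusted p = 0.0423). Of 16 kinetochore and checkpoint genes all had a lower mean (median -0.58) and 0 passed, with 10 lower at an unadjusted p under 0.05 by limma, where 16.7% of all genes were.

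Of 15 genes of chromosome condensation and separation 14 had a lower mean (median -0.39), and the condensin subunits Smc4 (-0.39, adjusted p = 0.0265) and Ncapd3 (-0.30, adjusted p = 0.0327) passed. Of 23 replication genes 22 had a lower mean (median -0.27). Those that passed were Mcm10, which helps start the helicase, lower by a log2 difference of -1.12 (SE 0.23, adjusted p = 0.00424), and thymidine kinase Tk1 at -0.78 (SE 0.25, adjusted p = 0.0381). Among 15 E2F and MuvB factors, 14 with a lower mean, E2f3 passed at -0.41 (SE 0.12, adjusted p = 0.0237). Of 11 G1 kinases and phosphatases 1 was lower, Cks2, a small Cdk-binding protein, at -0.74 (SE 0.21, adjusted p = 0.0222), and the median was -0.08. In the replication, E2F and MuvB and G1 kinase lists the share that passed was close to the 8% of all genes that were lower. The 2 of 15 genes of condensation and separation were not far from it. In each list but that of the inhibitors 0 genes were higher, and at an unadjusted p under 0.05 they numbered 0 in those lists as well.

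Markers of other cells differed between the groups for some lists. The urothelial list (12 of 12 genes detected) had a mean between -1.56 and -0.28 in control, -1.44 and 1.19 in mild, -0.64 and 1.42 in moderate and 1.46 and 3.21 in severe kidneys. Its summed level (log2 of the summed intensities over the 75th percentile) ran from 4.00 to 4.81, 3.97 to 6.13, 4.62 to 6.02 and 6.38 to 8.04 in the same order. The fibroblast and myofibroblast list (11 of 11) had summed levels of 6.60 to 6.98 in control, 6.88 to 7.45 in mild, 5.97 to 8.36 in moderate and 7.15 to 8.87 in severe kidneys. The tubular injury list (8 of 8) ran from 6.81 to 7.16, 6.90 to 7.54, 6.86 to 9.34 and 7.26 to 9.28. In mild kidneys 1 of 21 mitotic members passed, beside 0 of 12 urothelial, 0 of 11 fibroblast and 0 of 8 injury genes. At an unadjusted p under 0.05 by limma, 19 mitotic members were lower, and 2, 1 and 0 genes of those lists were higher. The mean was higher in mild kidneys for 10 of 12 urothelial, 11 of 11 fibroblast and 8 of 8 injury genes. For 6 mild kidneys the summed fibroblast level lay above every control. In the distal nephron and podocyte lists 7 of 7 and 6 of 6 genes had a higher mean, and 1 of each passed. The part of these cells in the levels of the cell cycle genes was not tested.

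In severe replicate 5, where the mitotic members were highest, the summed leukocyte list (12 of 13 detected, Cd68 not) was 6.71 against 4.99 to 5.56 in control kidneys, the fibroblast list was 8.87 and the proximal tubule list 8.36 against 10.12 to 10.42 in control kidneys. The fibroblast and leukocyte levels were the highest and the proximal tubule level the lowest of all 24 kidneys. In moderate replicates 2 and 4 and severe replicates 3 and 6, the other kidneys with mitotic members near control levels, the summed leukocyte level was 5.65, 4.94, 5.36 and 5.25, of which 1 lay above, 1 below and 2 within the control range. Among kidneys with low mitotic members it reached 6.32 in mild replicate 1, where Itgam alone stood at 5.85. The mean log2 leukocyte level of that kidney was -1.45, beside -2.06 to -1.47 in control kidneys. In severe replicate 4 the sum was 2.34, but it lacked Csf1r, which had no value there and stood at 4.47 to 4.80 in control kidneys. That sum therefore cannot be set against the others. The summed blood list (3 genes detected) was 8.91, 8.58, 9.04 and 9.28 in the same 4 kidneys and 8.05 in severe replicate 5, beside 6.75 to 8.88 in control kidneys. Its highest level, 9.63, was that of severe replicate 4, where the mitotic members were lowest. The distal nephron list (7 of 8 detected, Scnn1g not) overlapped between mild (8.37 to 8.88) and control kidneys (8.33 to 8.66) by its sum, although its mean log2 level was higher in every mild kidney (3.23 to 3.81) than in any control (2.95 to 3.20). The podocyte list (6 of 6) had sums of 4.85 to 6.03 in mild and 5.11 to 5.69 in control kidneys, and the endothelial list (7 of 7) of 5.43 to 6.25 in mgb-/- and 5.84 to 6.04 in control kidneys. The part of these lists was likewise not tested.

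**Figure D5:**
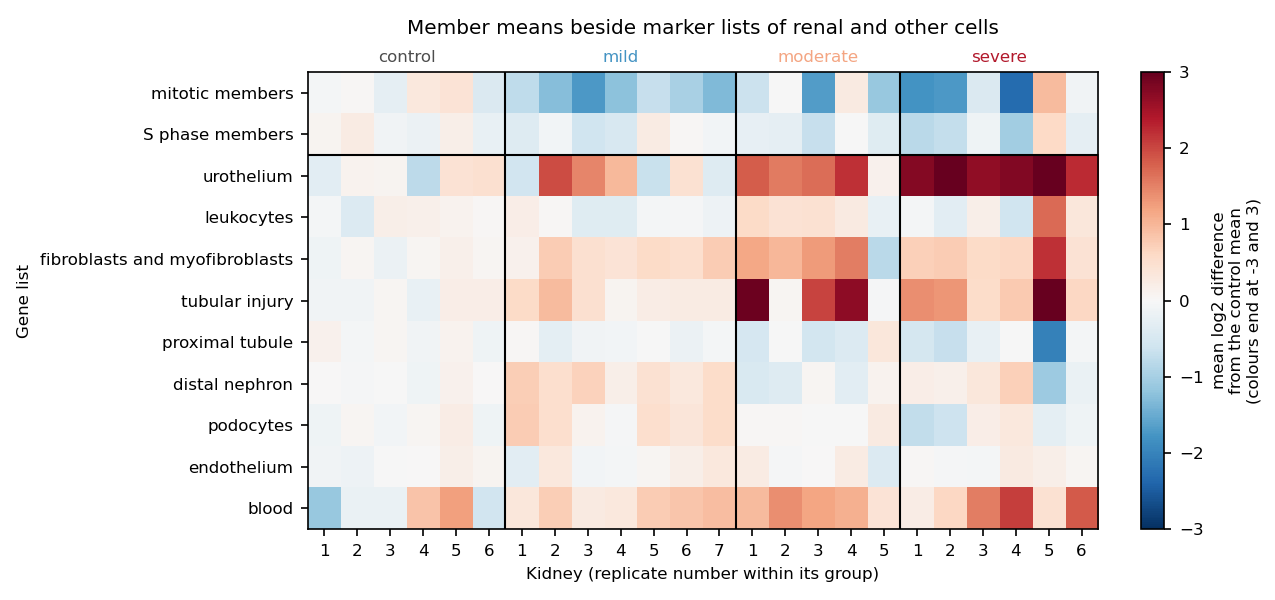
Mean log2 difference from the control mean of the mitotic and S phase members (upper 2 rows) and of 9 marker lists (lower rows) in each kidney (columns). The leukocyte mean of severe replicate 4 lacks Csf1r, which had no value there, and cannot be set against the others. Severe replicate 5 combines the highest mitotic mean (0.95) with the highest leukocyte, fibroblast and tubular injury means and the lowest proximal tubule mean, and urothelial markers are high in all 6 severe kidneys whether their mitotic members are low or not.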

How the data were processed

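Total RNA of 24 kidneys was hybridized to single-colour arrays, which the authors read with Agilent Feature Extraction (10.10 in the submitters' processing notes). The deposited scanner files give each spot's processed intensity, with background subtracted and spatial trend removed within the array, and its uncorrected median intensities. A second deposited table holds linear intensities after the authors' own scaling of the arrays, whose method is not given in the sources used here. The processed intensity was converted to log2, and the log2 of the array's 75th percentile was subtracted. Outlier spots were dropped, a probe was kept where it exceeded background clearly on 5 arrays or more, the size of the smallest group (38848 of 55681), and each gene was read from its brightest probe. No spot was saturated. Probes were named through RefSeq accessions (GRCm38.p6, 26756 probes). The array's annotation uses mm9, so no array coordinates are given. In 324 genes an array value was missing and stayed so.

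The limma package (3.58.1, R 4.3.3) fitted mgb-/- and control as 2 groups, or control and grades as 4, with Benjamini-Hochberg adjustment over 27971 genes. The steps were tested on simulated data. The members and lists were chosen with earlier results of these data known. Every member is reported, and of each further list the count past the threshold and at most 3 genes by lowest p, Cdkn1a in any case. Rb1 and Ckap2 were named beyond this rule. A marker gene is not reported here. Promoter windows were searched on both strands. The number of arrays limits the precision. Alternatives were quantile, median and normexp (offset 50) scaling, the authors' table, other filters, mean of probes, slide or replicate number as a block, array weights, other thresholds and samples, and omission of each kidney. Figures used matplotlib 3.10.9.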

Additional observations from a re-analysis of the deposited data

Results flagged for a closer look

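In 148 sets of values (37 members in 4 groups), 5 single kidneys lay far from the rest of their group by Dixon's criterion at 95%, which chance alone passes in about 1 of 20 groups. Severe replicate 5 had a low Ccnd1 level of 4.15, where the other severe kidneys were at 4.71 to 4.95, and a high Ccne1 level of 0.67, where they were at -1.78 to -1.02. Severe replicate 4 was low for Rrm1, at -1.76 against 1.14 to 2.30, and for Nusap1, at -6.37 against -1.84 to 0.16. Moderate replicate 3 was low for Mcm2, at -0.40 against -0.076 to 0.047 in the other moderate kidneys.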

How the results depend on the processing

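The medians stayed negative in all 35 alternatives run for them, from -1.12 to -0.74 for mitotic and from -0.45 to -0.13 for S phase members. The counts moved. Members lower in mgb-/- kidneys numbered 5, and 8 with probes above background on all arrays, 13 with slide as a block, 23 with array quality weights (18.0% of all genes), 17 at an adjusted p under 0.1 (12.4%), 1 with a 2-fold minimum, and 1 to 23 with each kidney left out. In mild kidneys (1 lower, 3.01% of all genes) they were 2 with quantile normalization, the authors' table, the mean of probes or slide as a block (2.41% for the slide). They were 3 with normexp or the filter on all arrays, 20 with weights (14.5%, and 1 member higher) and 12 at an adjusted p under 0.1 (5.61%). In the fit of both groups alone they were 22 (11.6%), and 0 to 12 with each kidney left out. In moderate kidneys (0) the number was 1 with quantile normalization, normexp, the authors' table, the filter on all arrays, weights (6.91% of all genes) or an adjusted p under 0.1 (2.17%). With each kidney left out it was 0 to 1. In severe kidneys (1 lower, 0 higher) it was 2 lower and 1 higher with quantile normalization, normexp, the filter on all arrays or the authors' table. With weights 12 were lower (16.8% of all genes) and 1 higher. At an adjusted p under 0.1, 6 were lower and 1 higher, and the 6 were close to the 14.5% of all genes that were lower. With a 2-fold minimum (1.73%) or both groups alone (2.67%) 0 were lower. With each kidney left out 1 to 17 were lower and 0 to 1 higher. With severe replicates 4 and 5 both left out, chosen after seeing the data, 24, 19, 1 and 6 members were lower in mgb-/-, mild, moderate and severe kidneys. Of all genes 10.2%, 5.61%, 2.49% and 4.91% were lower in the same order. The cause of these shifts was not tested. The sign of Ccnd1 turned to 0.019, 0.071 and 0.063 with quantile normalization, normexp and the authors' table, and that of Cdt1 and Mcm2 to 0.025 and 0.0078 with weights, all past no threshold. Of 38 alternatives, Tyms passed in 37, Cenpe in 31, Cdc45 in 28 and Mcm7 in 14, and Kif11 in 34 of 37.

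Replicate numbers showed no sign of pairing the kidneys. The 33 same-number pairs had a median correlation of 0.0046, with 10 over 0.1. The 182 different-number pairs had a median of 0.0036, with 58 over 0.1. In all, 6 kidneys were closest to their own number. This check does not show whether single kidneys came from the same mouse. With the replicate block 2 members were lower in mgb-/- (4.50% of all genes) and 0 in mild kidneys. Signal limited the dimmest genes: Ccne2, Aurkb and Cenpf could not be compared.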
